A study of Mus musculus with 6 samples.

Results

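The small leucine-rich proteoglycans are a family of secreted matrix proteins, and 9 of their genes were examined in obstructed mouse kidneys that lacked the microRNA miR-92b. The genes were taken by symbol from a table of read counts for 34714 genes and are Dcn (decorin), Bgn (biglycan), Aspn (asporin), Fmod (fibromodulin), Lum (lumican), Prelp (prolargin), Omd (osteomodulin), Ogn (osteoglycin, also called mimecan) and Podn (podocan). All 9 were among the 18927 genes with enough counts to be tested. The 6 libraries came from left kidneys taken 10 days after unilateral ureteral obstruction. In this model the left ureter is ligated, urine backs up and the kidney becomes fibrotic. In the knockout group (miR-92b-/-, 3 libraries) the microRNA gene was deleted in the whole body, and the wild-type group (C57BL/6J, 3 libraries) kept it. Mice of both groups were male, were 8 weeks old at the operation and, per the labels, underwent the same surgery. The knockout strain was bought from a supplier on a C57BL/6JGpt background, and the labels do not say that the wild-type mice were littermates. The treatment protocol calls the ligated kidneys nonfibrotic controls, which goes against the treatment label. Kidneys of sham-operated mice were not analysed here. Nothing in the labels says that replicates are separate animals, so p-values reflect the spread between these libraries, possibly a technical one.

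Small leucine-rich proteoglycans share a core of leucine-rich repeats that folds into a curved band and binds collagen. Many members carry chondroitin, dermatan or keratan sulfate chains, and they set the spacing and width of collagen fibrils. Decorin, biglycan, fibromodulin and asporin also bind TGF-β, and soluble biglycan acts as a danger signal through Toll-like receptors. In the kidney, fibroblasts and related perivascular cells are the main source of several of them. In bulk tissue, fewer cells of a type and less RNA per cell cannot be told apart.

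The library totals were 44476507 to 50769801 counts in the knockout and 38738204 to 51932509 counts in the wild type. The table holds no microRNA row, so the deletion itself could not be checked. Kidney markers were present throughout, and the summed level of 10 proximal tubule markers was 7291.2, 4299.9 and 2272.1 CPM (counts scaled to a common library size, after TMM normalization) in the knockout, against 5300.6, 4708.9 and 15121 CPM in the wild type. Most of each sum was the marker Kap, at 4837.6, 2674.3 and 1482.5 CPM in the knockout and 3912.9, 3219.7 and 12318.6 CPM in the wild type. Replicate 3 stood at opposite ends in the groups. Averaged over the 10 markers, log2 CPM minus its mean over libraries was -1.49 in knockout replicate 3 and 0.99 in wild-type replicate 3. In knockout replicate 1 this average was 0.71. The summed level of 12 collagen genes that partner these proteoglycans was 2717.4, 5266.4 and 7510.0 CPM in the knockout, against 3921.5, 2673.1 and 1872.2 CPM in the wild type. Fold changes of the proteoglycans are therefore given for all libraries and for replicates 1 and 2 alone, without replicate 3 of either group. Decorin, asporin, lumican and osteoglycin were themselves highest in knockout replicate 3 and lowest in wild-type replicate 3. For these members a lower value on replicates 1 and 2 follows from leaving those libraries out. The values on replicates 1 and 2 are thus a description and not an independent check.

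Biglycan and prolargin were the members whose 3 knockout libraries all lay above the 3 wild-type libraries. Prolargin averaged 2.33-fold and biglycan 1.7-fold the wild-type level. Decorin, osteoglycin, asporin, fibromodulin and lumican had higher means in the knockout with overlapping groups, and podocan and osteomodulin lay close to the wild type. With the quasi-likelihood test of edgeR, 0 of the 9 passed an adjusted p under 0.05, as did 0 of all genes tested (0%). At an unadjusted p under 0.05, 2 of the 9 were higher and 0 were lower, beside 4.38% and 3.52% of all genes tested. DESeq2 called 1 of the 9, Prelp, where it called 0.254% of all genes (0.139% on the higher side), and limma-voom called 0 of the 9 and 0.0159% of all genes. The count of 2 members without overlap on the higher side stands beside 8.95% of all genes tested, and the count of 0 on the lower side beside 7.2%. Of the 9 fold changes 8 were above 0, against 47.7% over all genes tested, and their median log2 fold change, in the direction knockout over wild type, was 0.48, against -0.018 over all genes. On replicates 1 and 2 alone 5 of the 9 were above 0, beside 49.6% of all genes, and the median was 0.14.

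**Figure D1:**
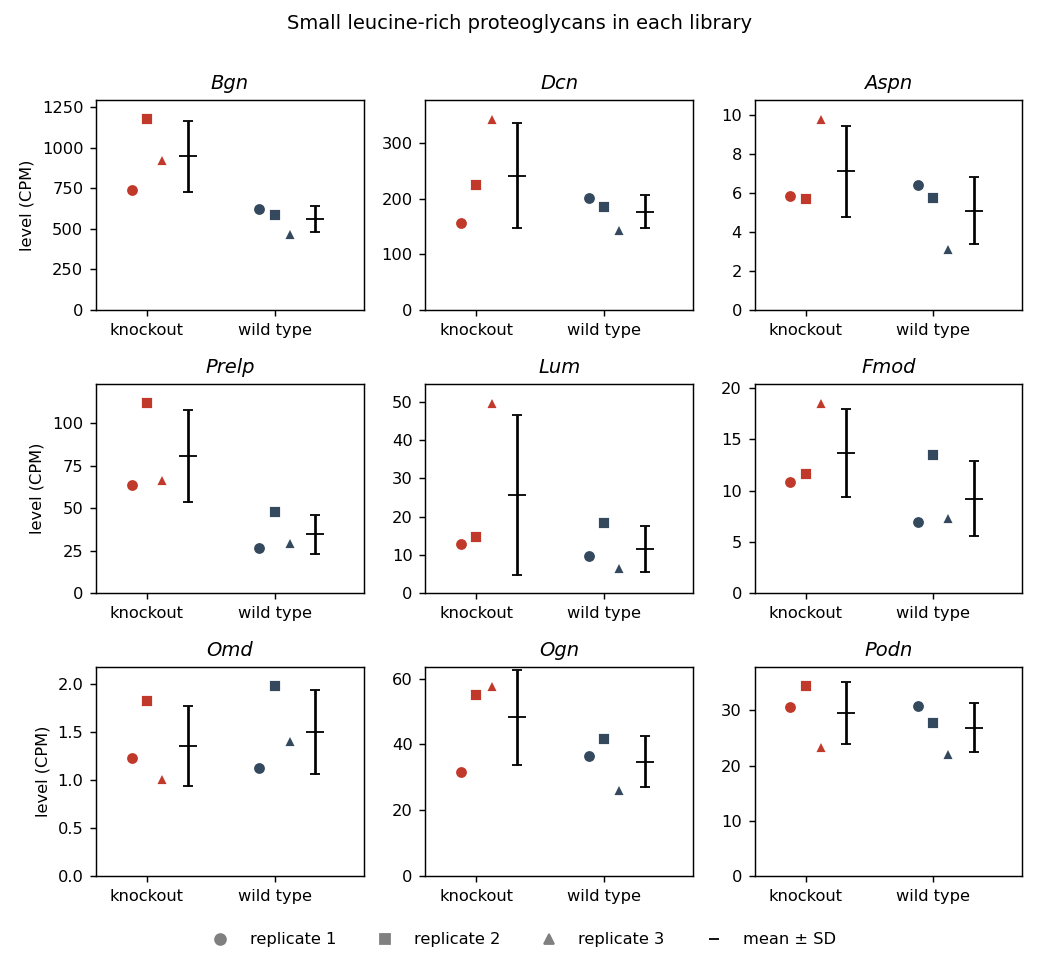
Level of each of the 9 genes in every library, in CPM on a linear axis from 0. Symbols give the replicate number, and the bar beside each group is the mean ± SD (n = 3). The groups separate for Bgn and Prelp, and knockout replicate 3 is the highest library for Dcn, Aspn, Lum, Fmod and Ogn.

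The class I members are biglycan, decorin and asporin. Biglycan, a proteoglycan with chondroitin or dermatan sulfate chains, measured 738.8, 1173 and 926.0 CPM in the knockout, against 619.7, 586.6 and 467.2 CPM in the wild type. Every knockout library was above the highest wild-type library, replicate 2 was highest in the knockout and replicate 3 lowest in the wild type. The log2 fold change was 0.76 ± 0.23 (SE, n = 3 per group), with a 95% interval of 0.23 to 1.29 and an edgeR adjusted p of 0.627. The exact two-sided permutation test gave p = 0.1, the smallest that 3 against 3 libraries allow. The value was 0.67 on replicates 1 and 2 alone, and 0.57 to 0.91 with each library left out in turn.

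Decorin, which limits the lateral growth of collagen fibrils and binds TGF-β, measured 156.6, 224.6 and 342.6 CPM in the knockout, against 201.4, 185.2 and 143.1 CPM in the wild type. Knockout replicate 1 lay inside the wild-type range, knockout replicate 3 was highest and wild-type replicate 3 was lowest. Its log2 fold change was 0.45 ± 0.29 (SE; edgeR adjusted p = 0.657), with a 95% interval of -0.21 to 1.11. Leaving out knockout replicate 3 gave 0.11, and replicates 1 and 2 alone gave -0.02.

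Asporin, which has a run of aspartate residues and binds calcium, was a minor member at 5.84, 5.71 and 9.79 CPM in the knockout, against 6.42, 5.75 and 3.15 CPM in the wild type. Only replicate 3 of each group departed from a narrow band, upward in the knockout and downward in the wild type. This gave a log2 fold change of 0.48 ± 0.35 (SE; edgeR adjusted p = 0.677), and -0.07 on replicates 1 and 2 alone.

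The ratio of biglycan to decorin counts within a library does not depend on library scaling. On the log2 scale it was 2.24, 2.39 and 1.43 in the knockout, against 1.62, 1.66 and 1.71 in the wild type. The wild-type ratios were close together (SD 0.04), whereas those of the knockout were spread (SD 0.51), with replicates 1 and 2 above and replicate 3 below every wild-type library. The difference in means was 0.35 (exact two-sided permutation p = 0.4). It was 0.25 without knockout replicate 1, 0.17 without knockout replicate 2, 0.65 without knockout replicate 3 and 0.67 on replicates 1 and 2 alone.

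The class II members are prolargin, lumican, fibromodulin and osteomodulin. Prolargin has an N-terminal region rich in arginine and proline that binds heparan sulfate, and it is thought to link basement membranes to the collagen beneath. It measured 63.4, 112.0 and 66.5 CPM in the knockout, against 26.5, 47.7 and 29.5 CPM in the wild type. All knockout libraries lay above all wild-type libraries, and replicate 2 was the highest in both groups. The log2 fold change was 1.22 ± 0.29 (SE, n = 3 per group), with a 95% interval of 0.54 to 1.90. The edgeR adjusted p was 0.627 and the DESeq2 adjusted p was 0.0453, and the exact two-sided permutation p was 0.1. On replicates 1 and 2 alone the value was 1.24, and it was 0.90 to 1.53 with each library left out in turn. An antisense gene, Gm15851, shares 350 of the 3615 exon bases of Prelp, and whether the authors' counting used strand is not given in the sources used here.

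Lumican, a keratan sulfate proteoglycan that organises collagen in the cornea and skin, measured 12.8, 14.5 and 49.7 CPM in the knockout, against 9.83, 18.3 and 6.47 CPM in the wild type. Its knockout mean rested on replicate 3, and the other two knockout libraries lay inside the wild-type range. The log2 fold change of 1.15 ± 0.59 (SE; edgeR adjusted p = 0.638) had the largest error of the 9. Leaving out knockout replicate 3 gave 0.24, replicates 1 and 2 alone gave -0.04, and limma-voom, which gives less weight to libraries that vary more, gave 0.13.

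Fibromodulin, which binds collagen at the same region as lumican and guides fibril growth in tendon, measured 10.9, 11.6 and 18.6 CPM in the knockout, against 6.92, 13.5 and 7.30 CPM in the wild type. The groups overlapped through wild-type replicate 2. Its log2 fold change was 0.57 ± 0.33 (SE; edgeR adjusted p = 0.645) and 0.14 on replicates 1 and 2 alone.

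Osteomodulin, a keratan sulfate proteoglycan of mineralised tissue, had the fewest counts of the members, with 51 to 85 per library in the knockout and 48 to 98 in the wild type. It measured 1.23, 1.83 and 1.01 CPM in the knockout, against 1.13, 1.98 and 1.40 CPM in the wild type, so the groups overlapped. The log2 fold change was -0.15 ± 0.36 (SE; edgeR adjusted p = 0.899), and its 95% interval of -0.99 to 0.68 leaves a difference in either direction undetermined. The sign was positive without knockout replicate 3 (0.02) or wild-type replicate 2 (0.10), and the value was -0.03 on replicates 1 and 2 alone.

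Osteoglycin, the class III member, is a small proteoglycan that affects collagen fibril width. It measured 31.7, 55.1 and 57.8 CPM in the knockout, against 36.6, 41.6 and 26.3 CPM in the wild type. Knockout replicates 2 and 3 were above every wild-type library, and replicate 1 was inside their range. The log2 fold change was 0.47 ± 0.26 (SE; edgeR adjusted p = 0.641) and 0.15 on replicates 1 and 2 alone.

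Podocan, the class V member, was first described in sclerotic glomeruli of mice. It measured 30.7, 34.5 and 23.4 CPM in the knockout, against 30.9, 27.8 and 22.1 CPM in the wild type, and replicate 3 was lowest in both groups. Its log2 fold change was 0.13 ± 0.19 (SE; edgeR adjusted p = 0.827), with a 95% interval of -0.31 to 0.58. It was 0 without knockout replicate 2, 0.01 without wild-type replicate 3, 0.27 without knockout replicate 3 and 0.15 on replicates 1 and 2 alone.

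**Figure D2:**
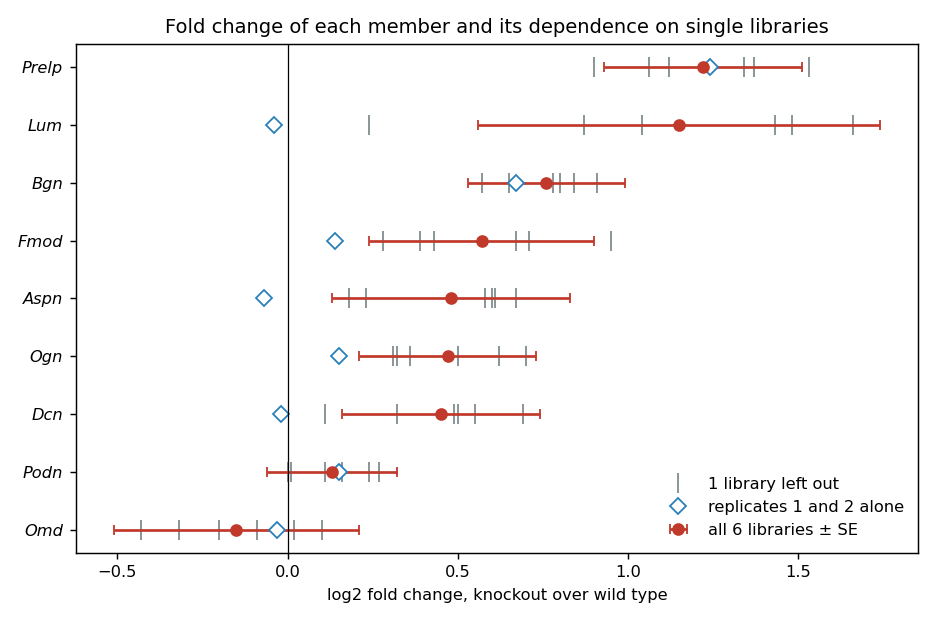
Log2 fold change of each gene, knockout over wild type (horizontal axis), with genes ordered by value. Filled points with bars are all 6 libraries ± SE, grey ticks leave out 1 library each, and open diamonds are replicates 1 and 2 alone. The diamonds of Prelp (1.24) and Bgn (0.67) stay near the filled points, and those of Lum (-0.04), Dcn (-0.02) and Aspn (-0.07) lie at about 0.

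The deleted microRNA pairs with targets through its seed, bases 2 to 8, which is shown in capitals below beside miR-92a-3p and miR-25-3p. These have the same seed and their genes were not deleted. The sequences are from RefSeq (GRCm38.p6).
miR-92b-3p: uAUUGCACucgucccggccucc
miR-92a-3p: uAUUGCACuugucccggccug
miR-25-3p: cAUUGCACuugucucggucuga
The matching sites in a 3′ UTR are the 8mer GTGCAATA, its first 7 bases, its last 7 bases and the 6mer TGCAAT, and they were searched on the sense strand of the longest annotated 3′ UTR (GENCODE M21). Biglycan was the member with an 8mer, which 2.65% of 15385 tested genes with a 3′ UTR also hold. Prolargin held 2 6mers and fibromodulin 1, and a 6mer was the best site in 12% of genes. The other six members held none of these sites, as did 74.7% of genes. The biglycan 8mer is the last 8 bases of transcript Bgn-201 (2419 nt), at positions 1130 to 1137 of a 3′ UTR of 1137 nt. The other coding transcript, Bgn-207 (1574 nt), ends after the first 4 bases of the site, so the annotated end decides whether the site is whole. The 3′ ends of both transcripts and the sites in prolargin (3′ UTR positions 787 to 792 and 1024 to 1029) and fibromodulin (1351 to 1356) are shown with the site, or the part of it that is present, in capitals.
Bgn-201 end: gtctctcaattaaagaaacactGTGCAATA
Bgn-207 end: agttgtctctcaattaaagaaacactGTGC
Prelp site at 787: tcgccaagcccTGCAATctcccttacccaa
Prelp site at 1024: tggcatgatacTGCAATtccctgattccct
Fmod site at 1351: ggttccagaacTGCAATccacaaaagccaa
A match is a description of the letters and not a measurement of binding. Biglycan and prolargin, whose groups did not overlap, held a site, and so did fibromodulin, whose groups overlapped. A site of any of these kinds was present in 25.3% of genes. Among further genes of the family, Ecm2 held the first 7 bases of the 8mer, and Tsku and Kera held a 6mer. The groups overlapped for Ecm2 and Tsku, and Kera had 0 counts. Whether any site acts on these genes was not tested.

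Promoter windows of RefSeq (GRCm38.p6; 250 bases before to 50 after the annotated start) were found for 7 of the 9 members. Those of Bgn and Prelp, whose groups did not overlap, and of Ogn, the member with the library profile nearest to the family mean, are printed on the gene's strand. Capitals mark matches on either strand to TATAAA (a core promoter box), GTCTAGAC (SMAD palindrome), CAGAC (short SMAD-binding motif), TGACTCA (AP-1 site), GGGCGG (GC box) and CACGTG (E box), none of which contains another.
Bgn, plus strand, chrX:73483351-73483650: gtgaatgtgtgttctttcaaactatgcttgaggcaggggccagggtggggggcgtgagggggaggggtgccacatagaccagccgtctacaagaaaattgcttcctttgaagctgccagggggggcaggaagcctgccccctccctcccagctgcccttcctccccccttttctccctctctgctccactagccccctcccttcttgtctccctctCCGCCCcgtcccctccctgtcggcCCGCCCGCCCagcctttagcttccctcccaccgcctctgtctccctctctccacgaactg
Prelp, minus strand, chr1:133921352-133921651: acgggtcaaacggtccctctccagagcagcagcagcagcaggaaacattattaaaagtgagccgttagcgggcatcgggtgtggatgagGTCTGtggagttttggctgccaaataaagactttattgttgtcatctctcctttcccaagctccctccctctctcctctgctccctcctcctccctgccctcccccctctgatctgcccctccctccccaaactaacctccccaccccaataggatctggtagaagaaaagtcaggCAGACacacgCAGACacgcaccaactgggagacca
Ogn, plus strand, chr13:49607765-49608064: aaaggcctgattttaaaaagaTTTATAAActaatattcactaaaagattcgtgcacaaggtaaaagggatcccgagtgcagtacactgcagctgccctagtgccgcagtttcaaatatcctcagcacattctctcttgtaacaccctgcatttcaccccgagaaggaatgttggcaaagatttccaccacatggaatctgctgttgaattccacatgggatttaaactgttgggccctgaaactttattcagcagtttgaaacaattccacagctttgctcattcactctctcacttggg
The Bgn window held 3 matches to GGGCGG, a motif present in 35.7% of 32851 such windows, and was 63.7% G and C. The Prelp window held 3 matches to CAGAC (49.6% of windows). The Ogn window held 2 matches to TATAAA (13.6% of windows), 1 on each strand, which overlap. These lie near the upstream end of the window, far from the annotated start, and whether they act as a core promoter box was not tested. Aspn also had 2 matches to TATAAA, likewise in the upstream part of its window, and Fmod had 2 to CAGAC. No window of the 7 members held GTCTAGAC, which is in 0.213% of windows. The 3 printed windows thus share none of the 6 motifs.

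Of the 9 genes, 7 lie in 3 clusters with other members of the family (GENCODE M21, GRCm38). Dcn (chromosome 10, 97479609 to 97518143, plus strand) and Lum (97565128 to 97572703, plus strand) are 47.0 kb apart. Both were highest in knockout replicate 3 and lowest in wild-type replicate 3, but Lum varied more, and the log2 ratio of Lum to Dcn counts was -3.62, -3.95 and -2.78 in the knockout, against -4.36, -3.34 and -4.47 in the wild type. The groups overlapped for this ratio (exact two-sided permutation p = 0.3).

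Prelp (chromosome 1, 133910304 to 133921414, minus strand) and Fmod (134037254 to 134048277, plus strand) are 115.8 kb apart. Their ratio was nearly constant in the wild type (SD 0.1 on the log2 scale) and spread in the knockout (SD 0.72). The log2 ratio of Prelp to Fmod counts was 2.55, 3.27 and 1.84 in the knockout, against 1.94, 1.83 and 2.02 in the wild type. Replicates 1 and 2 of the knockout were above the wild type and replicate 3 was inside its range (exact two-sided permutation p = 0.3).

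Aspn (chromosome 13, 49544443 to 49567565, plus strand), Omd (49582462 to 49592822) and Ogn (49608046 to 49624501) lie in a row. The gene Cenpp runs across all 3 on the opposite strand and shares 7 exon bases with Aspn and 0 with Omd or Ogn. The Omd to Ogn log2 ratio was -4.69, -4.91 and -5.83 in the knockout, against -5.02, -4.39 and -4.23 in the wild type, and the groups overlapped (exact two-sided permutation p = 0.3). Bgn (chromosome X, 73483602 to 73495933) and Podn (chromosome 4, 108014791 to 108096445) lie apart from other members examined.

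Levels were compared between genes per kb of the longest coding transcript. Biglycan was the most abundant member in all 6 libraries, at 305.4, 485.1 and 382.8 CPM per kb in the knockout and 256.2, 242.5 and 193.1 CPM per kb in the wild type. Decorin was next, at 89.1 to 194.9 CPM per kb in the knockout and 81.4 to 114.6 in the wild type. Prolargin (17.5 to 31.0) and osteoglycin (12.4 to 22.5) followed in the knockout, with overlapping ranges, and in the wild type osteoglycin (10.2 to 16.2) came before prolargin (7.34 to 13.2), again with overlap. Podocan (7.37 to 10.9 in the knockout, 6.96 to 9.74 in the wild type) overlapped with lumican (5.21 to 20.3 in the knockout, 2.64 to 7.49 in the wild type) in both groups. Fibromodulin (3.48 to 5.95 in the knockout, 2.22 to 4.31 in the wild type) and asporin (2.45 to 4.20 in the knockout, 1.35 to 2.76 in the wild type) also overlapped. Within each wild-type library osteoglycin was above prolargin and podocan above lumican. In the knockout, prolargin was above osteoglycin and podocan above lumican in replicates 1 and 2, and both orders were reversed in replicate 3. Fibromodulin was above asporin in every library except wild-type replicate 1. Osteomodulin was lowest in every library, at 0.45 to 0.811 in the knockout and 0.502 to 0.881 in the wild type.

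The summed level of the 9 genes was 445.8, 689.1 and 656.9 CPM per kb in the knockout, against 411.6, 401.2 and 306.8 in the wild type, 1.6-fold on the means. On the log2 scale this ratio of means was 0.68, and 0.48 on replicates 1 and 2 alone. Without biglycan it was 140.4, 204.0 and 274.1 in the knockout, against 155.4, 158.7 and 113.7 in the wild type, with knockout replicate 1 inside the wild-type range. The share of biglycan in the sum was 68.5%, 70.4% and 58.3% in the knockout, against 62.2%, 60.4% and 62.9% in the wild type, so replicates 1 and 2 of the knockout were above and replicate 3 below all wild-type libraries (exact two-sided permutation p = 0.4). Decorin ran the other way, with shares of 20.0%, 18.5% and 29.7% in the knockout, against 27.8%, 26.3% and 26.5% in the wild type. Podocan took 2.17%, 1.58% and 1.12% of the sum in the knockout, against 2.37%, 2.18% and 2.27% in the wild type, lower in 3 of 3 knockout libraries (exact two-sided permutation p = 0.1, the smallest possible). A lower share of podocan stood beside a level that overlapped between the groups. The sum is mostly biglycan, which was higher in every knockout library, so the podocan share depends on biglycan as well as on podocan. For the shares of the other members the exact two-sided permutation p was 0.2 or more. Prolargin took 3.93%, 4.50% and 2.80% in the knockout, against 1.78%, 3.29% and 2.66% in the wild type, which overlapped.

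**Figure D3:**
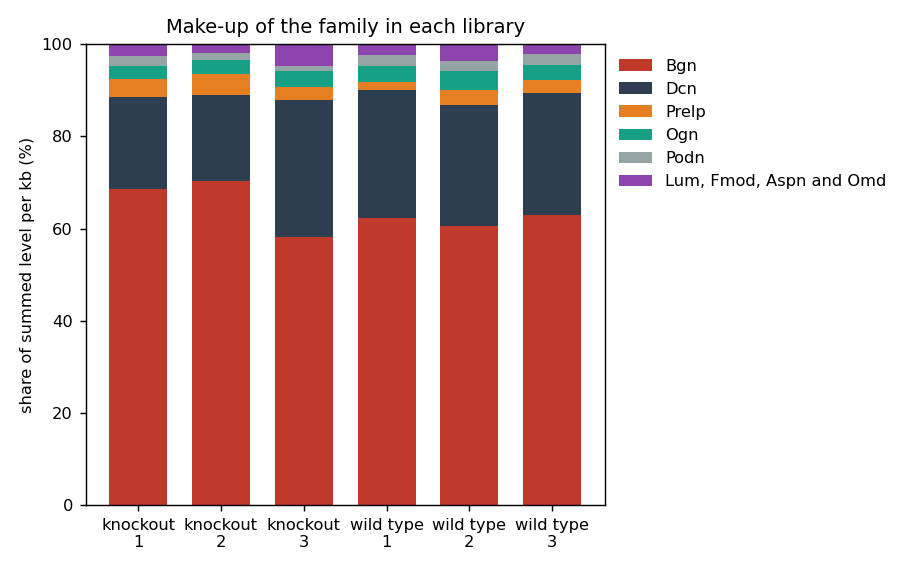
Share of each member in the summed CPM per kb (vertical axis, %) in each library, with the 4 least abundant genes drawn as 1 segment. Biglycan and decorin make up most of every bar, and the decorin segment is 29.7% in knockout replicate 3 against 20.0% and 18.5% in the other knockout libraries.

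Fibroblast markers differed between libraries in an order close to that of several members. All 11 fibroblast markers listed (such as Pdgfra, Pdgfrb, Dpt and Tcf21) were detected, with a summed level of 348.3, 595.4 and 662.7 CPM in the knockout, against 482.3, 356.2 and 279.0 CPM in the wild type. The fold change was above 0 for 11 of 11, with a median of 0.77 on the log2 scale, and 0 were called by edgeR. Like the collagens, decorin, lumican, asporin and osteoglycin, the fibroblast sum was highest in knockout replicate 3 and lowest in wild-type replicate 3. The median over the 9 members of log2 CPM minus the mean log2 CPM of the fibroblast markers was 1.57, 1.5 and 1.34 in the knockout, against 1.16, 1.72 and 2.12 in the wild type. The difference of -0.20 was within the range of the libraries, and it was 0.09 on replicates 1 and 2 alone. For prolargin this relative level was 2.61, 3.20 and 1.76 in the knockout, against 1.16, 2.5 and 2.54 in the wild type, and for biglycan it was 6.15, 6.59 and 5.56 in the knockout, against 5.71, 6.12 and 6.52. Relative to fibroblast markers the groups thus overlapped for both. The part of fibroblast content in the members' values was not tested.

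Other sources were also listed. The 8 macrophage markers summed to 1752.3, 2030.9 and 2104.4 CPM in the knockout, against 1470.3, 1539.2 and 1534 CPM in the wild type. All 8 had fold changes above 0, with a median of 0.25 on the log2 scale, and for 4 of them (Adgre1, C1qb, C1qc and Lyz2) the groups did not overlap, beside 8.95% of all genes tested. As for biglycan and prolargin, every knockout sum was above every wild-type sum. The 7 endothelial markers summed to 341.1, 559.6 and 970.9 CPM in the knockout, against 727.8, 383.3 and 381.8 CPM in the wild type, highest in knockout replicate 3. T and B cell markers summed to 122.7, 151.3 and 70.4 CPM in the knockout, against 34.0, 44.6 and 39.8 CPM in the wild type, without overlap. Of the 7, 5 had fold changes above 0, and Jchain, of antibody-secreting cells, was the 1 whose groups did not overlap. Most of the knockout sums was Jchain, at 88.2, 108.2 and 53.4 CPM, against 5.29, 6.72 and 3.55 CPM in the wild type. The summed level of 7 adipocyte markers (2 of them below the filter) was 332.3, 55.6 and 145.7 CPM in the knockout, against 114.2, 120.7 and 70.5 CPM in the wild type, highest in knockout replicate 1, where no member was highest. The 7 smooth muscle and myofibroblast markers summed to 263.1, 580.9 and 933.9 CPM in the knockout, against 816.4, 385.8 and 265.0 CPM in the wild type. Of 9 markers of tendon, cartilage and bone, where fibromodulin and osteomodulin are abundant, 3 were tested, and Ibsp was at 0 in every library. The sum of the 9 was 14.0 to 20.5 CPM in the knockout and 13.6 to 29.9 CPM in the wild type. Most of it came from Scx, at 12.3 to 17.1 CPM in the knockout and 11.6 to 27.5 CPM in the wild type. The 6 podocyte markers summed to 447.3 to 558.7 CPM in the knockout and 438.2 to 521.9 CPM in the wild type. The 6 skeletal muscle markers were low, at 1.03, 0.923 and 1.11 CPM in the knockout, against 5.95, 5.58 and 5.4 CPM in the wild type. For 5 of them every knockout library was below every wild-type library, beside 7.2% of all genes tested. DESeq2 called 5 of the 6 lower, where it called 0.254% of all genes in either direction. The source of this difference between the groups was not tested. The part of these cells in the members' values was not tested.

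**Figure D4:**
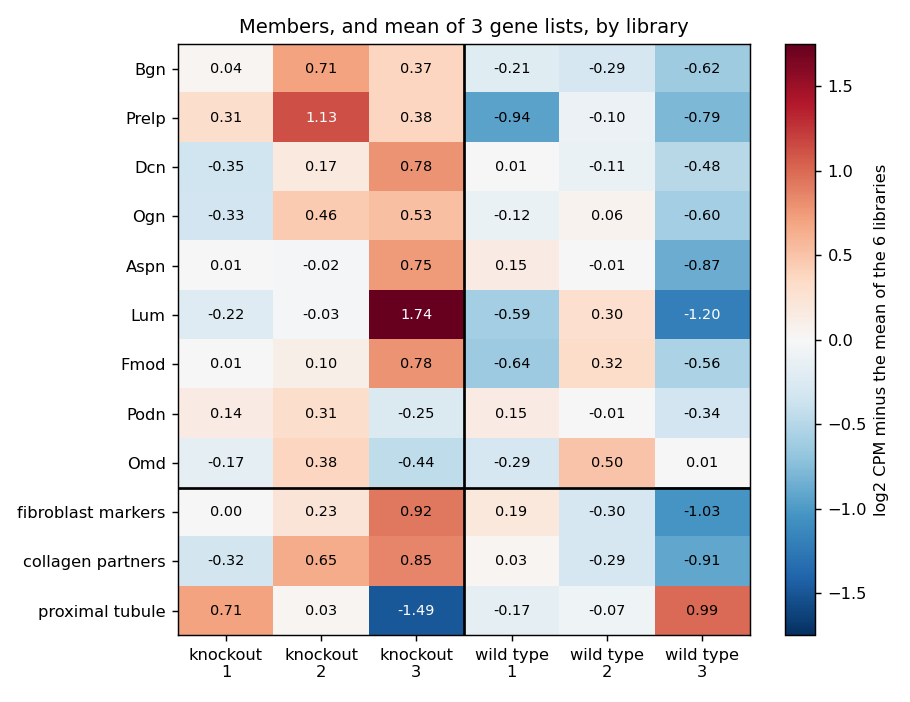
Log2 CPM minus the mean of the 6 libraries for each gene, and below the line the mean of the same quantity over 11 fibroblast markers, 12 collagen partners and 10 proximal tubule markers. Red is above and blue below the mean of the libraries. Knockout replicate 3 and wild-type replicate 3 are at opposite ends for the fibroblast markers (0.92 and -1.03) and for Lum (1.74 and -1.20), and Prelp is highest in knockout replicate 2 (1.13).

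The genes with library profiles nearest to the mean of the 9 members were sought among 7740 genes with at least 5 CPM. Likeness was the root mean square difference of centred log2 CPM over the 6 libraries. The nearest were Peak1 (0.058), S1pr2 (0.059), Tmtc2 (0.069), Rbfox2 (0.088) and Ston1 (0.091). Each member was farther from that mean than these genes, from 0.134 for Ogn to 0.602 for Lum. These genes were picked as the nearest of 7740 and the members were not picked by distance. The order was thus largely set by the selection.

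Of 9 further genes of the family, 8 were tested, and 4 had fold changes above 0 and 4 below 0, with 0 called. Kera (keratocan) had 0 counts in every library. Tsku (tsukushi) measured 24.5, 20.4 and 27.4 CPM in the knockout, against 19.0, 30.8 and 26.4 CPM in the wild type. Ecm2, the class I neighbour of Aspn, measured 10.4, 16.9 and 16.1 CPM in the knockout, against 12.4, 12.7 and 7.53 CPM in the wild type, with a log2 fold change of 0.41 ± 0.28 (SE; edgeR adjusted p = 0.662). Epyc (epiphycan) was at 0.228, 0.0859 and 3.04 CPM in the knockout, against 0, 0.344 and 0 CPM in the wild type, so it was above 1 CPM in knockout replicate 3 alone. Chad, Chadl, Nyx, Optc and Podnl1 were between 0.0912 and 4.06 CPM in the knockout and between 0.106 and 3.95 CPM in the wild type, all with edgeR adjusted p above the threshold.

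The enzymes that build chondroitin and dermatan sulfate chains tended to have fold changes above 0. Of 22 listed and tested, 21 were above 0, the median log2 fold change was 0.34, and 7 had all knockout libraries above all wild-type libraries, where the background is 8.95%. With edgeR 0 passed. The 3 with the smallest p were Chst11, a chondroitin 4-O-sulfotransferase, at 0.71 ± 0.18 (SE), Chpf, a chondroitin polymerising factor, at 0.60 ± 0.18, and Xylt1, a xylosyltransferase that starts the chain on the core protein, at 1.47 ± 0.61 (edgeR adjusted p = 0.627 for each). Chst11 measured 44.0, 48.1 and 48.2 CPM in the knockout, against 21.4, 31.4 and 32.8 CPM in the wild type, without overlap. Of 6 tested genes of keratan sulfate synthesis, 5 were above 0 with a median of 0.13, and B4galt1, B4galt4 and Chst2 stood at 0.30, 0.13 and 0.21.

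Among 14 tested proteases and processing factors that act on these proteoglycans or on procollagen, 10 were above 0, the median was 0.39, and 0 passed with edgeR. Mmp2, a gelatinase that can cleave decorin, measured 61.2, 103 and 91.2 CPM in the knockout, against 43.2, 60.0 and 30.4 CPM in the wild type (log2 fold change 0.93 ± 0.28, SE). Gzmb, a granzyme that can cleave decorin and biglycan, measured 0.844, 1.55 and 1.35 CPM in the knockout, against 2.28, 1.92 and 11 CPM in the wild type (-2.02 ± 0.69), and Mmp3 was at 0.67 ± 0.35 with overlap. Of 18 receptors and signalling partners, 17 were above 0 with a median of 0.28 and 2 were without overlap on the higher side, near the 8.95% of all genes tested. Lrp1, an endocytic receptor that binds decorin and biglycan, measured 222 to 361 CPM in the knockout and 139 to 199 CPM in the wild type (0.76 ± 0.23), while Tgfb2 and Ccn2 stood at 0.57 ± 0.25 and 0.53 ± 0.23. All of these had edgeR adjusted p values above the threshold.

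All 12 collagen partners had fold changes above 0, with a median of 0.85 on the log2 scale, and 1 of them was without overlap, near the 8.95% of all genes tested. That gene was Col12a1, which encodes a collagen that attaches to fibril surfaces, at 1.35 ± 0.25 (SE; edgeR adjusted p = 0.627; DESeq2 adjusted p = 0.00118). Col14a1 and Col5a2 stood at 0.78 ± 0.28 and 0.94 ± 0.35, with overlapping groups.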

How the data were processed

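Total RNA from obstructed kidneys was sequenced as mRNA libraries, per the labels' protocols, and the deposited table holds the authors' unnormalized whole-number counts by gene symbol. The build, GRCm38 (mm10), is from the submitters' processing notes; no aligner, counter or strand setting is given in the sources used here. Columns were assigned by library name and groups by title.

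Genes were filtered with filterByExpr, which kept 99.96% of counts, scaled by TMM and compared by the quasi-likelihood test of edgeR 4.0.16 (R 4.3.3) in a model of group alone. Benjamini-Hochberg adjustment ran over all 18927 genes tested, with a threshold of 0.05. Standard errors come from the log2 fold change and the square root of its F value, and 95% intervals use its degrees of freedom. Log2 CPM used a prior count of 2. DESeq2 1.42.0 and limma-voom (limma 3.58.1) were alternatives, besides other scalings and filters, robust fitting off, a replicate block, libraries left out and the length trend removed, and the code was tested on simulated data. Lengths are of the longest coding GENCODE M21 transcript, since the longest decorin transcript of any kind retains an intron; that was decided after the data were seen.

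The members and lists were chosen with earlier results of these data known. Named genes are all members, the other family genes and up to 3 genes per list with the smallest p and at least 1 CPM in a group; likeness was limited to genes with an SD of at least 0.2. Replicate numbers were not used to pair the samples in the main model. No library was a copy of another (chi-square per degree of freedom at least 31.13).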

Additional observations from a re-analysis of the deposited data

How the results depend on the processing

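Over the results and alternatives run, 206 values kept their direction and their side of the threshold or stayed within the replicate spread. Of the others, 7 changed sign, 7 moved beyond these limits and 1 crossed the threshold. With 0 members passing in the main fit, a member counted as kept however far its value fell, if its sign held and it did not pass. Some of the 206 could not change, such as the count of calls at a threshold of 0.01. The count of all genes called, 0 with the settings used, was 53 with DESeq2, 3 with limma-voom, 2 with no filter, 1 with the replicate block and 1 on replicates 1 and 2 alone, and ranged from 0 to 1 with each library left out in turn. Prelp passed with DESeq2 (log2 fold change 1.23). With limma-voom and its quality weights Lum was at 0.13, Fmod at 0.05 and Aspn at 0.20, and the median of the members was 0.22. On replicates 1 and 2 alone Dcn, Aspn and Lum turned to -0.02, -0.07 and -0.04, and the median of the 9 members was 0.14. With each library left out in turn Omd ranged from -0.43 to 0.10. The median level relative to fibroblast markers ranged from -0.45 to 0.03 with each library left out in turn, and was 0.09 on replicates 1 and 2 alone. The cause was not tested. Same-numbered libraries did not deviate together (correlations of -0.28, 0.18 and -0.29). With 3 libraries per group these correlations cannot exclude a pairing by number, so whether the numbers pair the libraries is unknown. With the replicate block Lum was at 0.93 and Prelp at 1.22, and the block called none of the members. With the transcript length trend removed, an alternative chosen after seeing the data, the median of the members was 0.53. Omd had the fewest counts of the members, 48 to 98 per library.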

Other observations

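Larger proteoglycans that share the matrix and cell surface with the small leucine-rich family were listed too. Of 15 tested, 9 had fold changes above 0 and 6 below 0, and the median was 0.21 on the log2 scale. For 3 of them every knockout library was above every wild-type library, beside 8.95% of all genes tested. Gpc1, a glypican of the cell surface, measured 36.1, 42.6 and 45.7 CPM in the knockout, against 26.8, 28.3 and 26.0 CPM in the wild type (0.62 ± 0.14, SE). Sdc3, a syndecan, measured 124 to 174 CPM in the knockout and 80.9 to 98.5 CPM in the wild type (0.63 ± 0.18). Hspg2, perlecan of the basement membrane, measured 211 to 299 CPM in the knockout and 114 to 177 CPM in the wild type (0.73 ± 0.22). Each had an edgeR adjusted p of 0.627, and the groups did not overlap for these 3 genes.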
